A study of Mus musculus with 2 samples.

Results

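The 8 genes described here are the Notch receptors Notch1 and Notch2, the DNA-binding factor Rbpj and 5 genes known as Notch targets, Dtx1, Hes1, Hey1, Heyl and Ptcra. They were taken as a family and found by gene symbol in the platform annotation, where each has 1 probe set, and they are 8 of 19505 named genes. Expression was measured on 2 microarrays, 1 with RNA of innate lymphoid cell (ILC) progenitors of wild-type mice and 1 with RNA of ILC progenitors whose genotype is labelled Yeats4 knockout. Both samples were mouse cells without lineage markers, sorted by flow cytometry, with CD127 and integrin α4β7 on the surface and intermediate c-Kit and Sca-1, and the wild-type mice were littermates. The labels give neither the ages of the mice, how many were pooled, nor the way the Yeats4 deletion was made. Yeats4 encodes a reader of acetylated histones found in the SRCAP and Tip60 chromatin complexes. The comparison asks which Notch pathway genes differ when it is deleted.

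Notch is a surface receptor that is cut when a ligand on a neighbouring cell binds it. ADAM proteases and then γ-secretase release its intracellular domain, which enters the nucleus, joins Rbpj and a Mastermind coactivator on DNA and turns on target genes. Without that domain, Rbpj is bound by corepressors. In lymphoid progenitors Notch1 drives entry into the T cell lineage, and Notch signals also act in the making of some ILC subsets.

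All levels below are the authors' RMA values on the log2 scale, and every difference was taken as the level on the array whose label reads knockout minus that in wild type. Each genotype had 1 array, so replicate error is unknown, no test was possible, and each difference holds for these arrays only. As a yardstick, the local spread, a scaled median absolute deviation, is given for the differences of the 500 genes nearest in mean level. Genes were counted when their mean level reached 2.88, the median over all probe sets, as 10881 genes and all 8 members did. The background level of an array was the 95th percentile of its 5222 negative control probe sets, 4.80 for wild type and 4.73 for the second array. A gene under it on both arrays is called near background, and no fold is given for it. A difference of at least 1 on the log2 scale in size is called 2-fold as measured. Yeats4 itself read 5.96 in wild type and 5.90 on the knockout-labelled array. Where its probe set lies relative to the deleted part is not known here, so this reading does not check the label. Of the genes of the ILC progenitor gate, Il7r, Kit, Itga4 and Itgb7 were above background on both arrays, and that of Sca-1 was not looked at. They did not all read alike on the arrays. Il7r differed by -0.70, with 4 of its 500 neighbours as low, and Kit by 0.65, with 11 of 500 as high. Itga4 and Itgb7 differed by 0.004 and -0.14. The neutrophil granule genes Mpo and Elane also read high, at 11.09 and 11.14 on the wild-type array. The samples were measured in bulk, so fewer cells of a type and less RNA per cell cannot be told apart.

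Promoter sequences are shown for the members whose values the results turn on, to set the target genes beside Rbpj. RefSeq (GRCm38.p6) windows from 250 bases before to 50 bases after the start site were matched by symbol for 5 of the 8 members, Notch1, Notch2, Rbpj, Dtx1 and Ptcra. Printed 5′ to 3′ on the gene's strand are Ptcra (chr17:46763663-46763962, minus strand), Dtx1 (chr5:120711620-120711919, minus strand) and the first of the Rbpj windows (chr5:53590096-53590395, plus strand). Capitals mark TGGGAA, the core letters of the Rbpj motif, on either strand, and CAGCTG, an E-box form bound by E proteins, which reads the same on both strands.
Ptcra: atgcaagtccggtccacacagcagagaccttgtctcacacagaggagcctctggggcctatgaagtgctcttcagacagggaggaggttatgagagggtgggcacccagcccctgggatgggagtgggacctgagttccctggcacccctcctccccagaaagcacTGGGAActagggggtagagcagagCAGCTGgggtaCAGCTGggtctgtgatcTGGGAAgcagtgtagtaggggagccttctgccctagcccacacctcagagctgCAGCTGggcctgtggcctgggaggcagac
Dtx1: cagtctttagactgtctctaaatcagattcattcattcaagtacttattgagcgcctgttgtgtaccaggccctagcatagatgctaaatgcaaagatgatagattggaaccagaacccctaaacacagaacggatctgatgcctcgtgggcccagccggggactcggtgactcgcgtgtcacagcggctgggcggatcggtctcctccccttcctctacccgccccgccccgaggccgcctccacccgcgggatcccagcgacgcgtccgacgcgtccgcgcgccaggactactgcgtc
Rbpj: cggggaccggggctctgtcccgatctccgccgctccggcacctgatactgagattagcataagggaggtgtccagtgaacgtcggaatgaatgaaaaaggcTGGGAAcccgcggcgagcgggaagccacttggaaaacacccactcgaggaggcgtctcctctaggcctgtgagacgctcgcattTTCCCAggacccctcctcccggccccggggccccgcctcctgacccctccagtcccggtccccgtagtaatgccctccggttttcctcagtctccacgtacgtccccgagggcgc
The Ptcra window held TGGGAA at positions 167 and 219, counted from 1 at its 5′ end, and CAGCTG at positions 191, 202 and 272. The printed Rbpj window held TGGGAA at position 102 and, on the opposite strand, at position 186, with no CAGCTG. The Dtx1, Notch1 and Notch2 windows held neither. Of 32851 promoter windows in the table, 25.6% held TGGGAA and 16.3% held CAGCTG on either strand. The longer GTGGGAA, which contains TGGGAA, was in 6.38% of all windows and in none of the members' windows. CACCTG, another E-box form, was in 20.2% of all windows and, among the members, in the printed Rbpj window only. These are matches of letters in a short window and show no binding.

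The receptors and Rbpj were read at about the same level on both arrays. Notch1, the receptor of T lineage entry, read 6.02 in wild type and 5.87 on the knockout-labelled array, which differs by -0.15 beside a local spread of 0.35. Notch2, which acts in marginal zone B cell and dendritic cell development, read 5.97 and 5.93, a difference of -0.05 against a spread of 0.35. Rbpj, through which all Notch receptors act on DNA, read 5.98 and 6.22, a difference of 0.24 against a spread of 0.34. All 3 were above background on both arrays, by at least 1.14 on the log2 scale, and each difference was smaller than its local spread. Genes of this level were on the whole slightly higher on the knockout-labelled array, and the median difference of the 500 genes nearest to Notch1 was 0.17. Set against that median Notch1 lay 0.32 lower, and 99 of the 500 genes were as low. Notch2 lay 0.21 below its neighbours' median, with 145 as low, and Rbpj 0.09 above, with 201 as high.

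**Figure D1:**
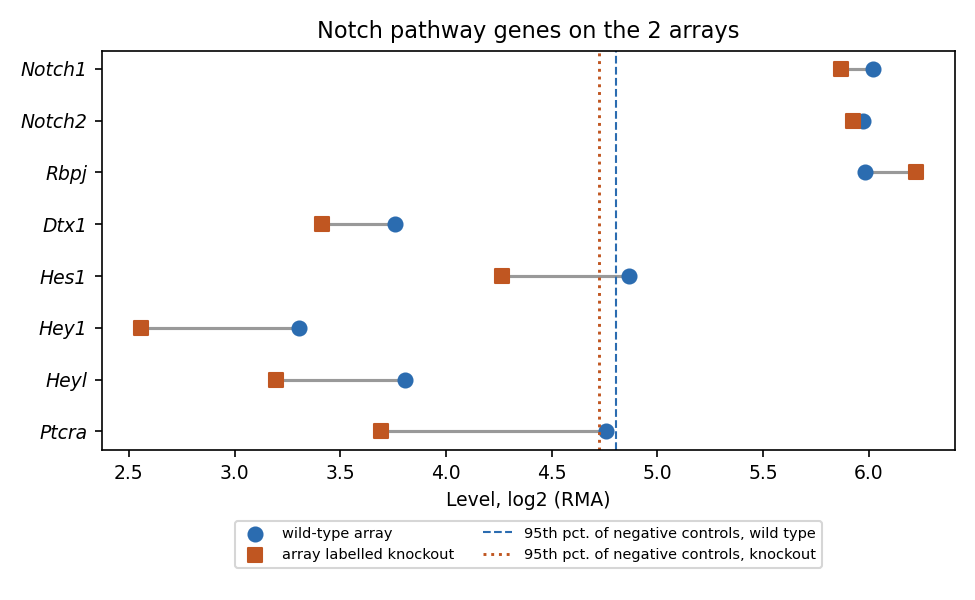
Level (log2, RMA) of each member on the wild-type array (circles) and the knockout-labelled array (squares); the vertical lines are the 95th percentiles of the negative controls on each array. Notch1, Notch2 and Rbpj sit between 5.87 and 6.22 on both arrays, while Hes1 crosses the background lines and Dtx1, Hey1, Heyl and Ptcra lie under them on both arrays.

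The 5 target genes all read lower on the knockout-labelled array, at levels near or under background. Ptcra encodes the pre-T cell receptor α chain, made in thymocytes before the α chain is rearranged. It read 4.76 in wild type and 3.69 on the knockout-labelled array, a difference of -1.07 against a spread of 0.48. The wild-type reading was 0.05 under the background level of that array, so Ptcra counts as near background on both. Of the 500 genes nearest in level, 4 were as low.

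Hes1 encodes a bHLH repressor that is the best known Notch target in many tissues. It read 4.86 in wild type, 0.06 above background, and 4.26, a reading under background, on the knockout-labelled array. The difference as measured was -0.60 against a spread of 0.45, and 27 of 500 neighbours were as low. Because the lower reading is under background, the fold is only bounded: Hes1 was at least 1.04-fold lower, with the wild-type reading taken as exact. That limit is much smaller than the local spread.

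Hey1 and Heyl encode hairy-related bHLH repressors, known from blood vessels, heart and muscle. Hey1 read 3.30 in wild type and 2.56 on the knockout-labelled array, a difference of -0.75 against a spread of 0.42. Heyl read 3.80 and 3.19, a difference of -0.61 against a spread of 0.50. Both were near background, and 30 and 50 of their 500 neighbours were as low. Dtx1 encodes Deltex1, a ubiquitin ligase that binds the intracellular part of Notch and is itself induced by Notch in lymphocytes. It read 3.76 and 3.41, also near background, and its difference of -0.34 was smaller than the local spread of 0.46. Among its 500 neighbours 128 were as low.

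**Figure D2:**
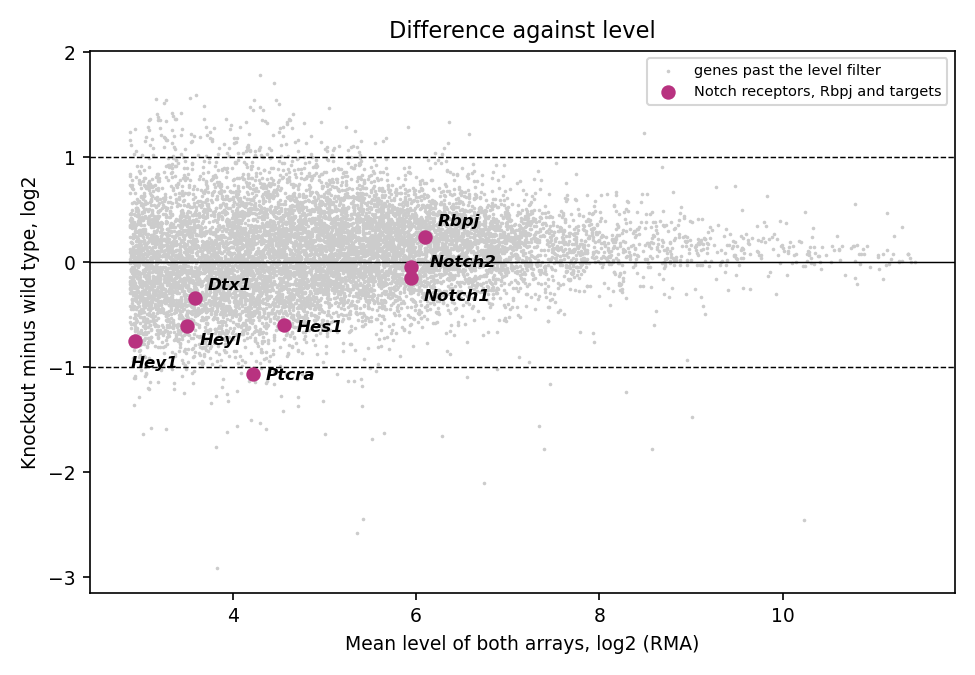
Difference (knockout minus wild type, log2) against the mean level of both arrays for the 10881 genes past the level filter (grey) and the 8 members (named); dashed lines mark 2-fold. Ptcra, at -1.07, is the member past the lower line, and Notch1, Notch2 and Rbpj lie inside the cloud near 0.

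In all, 7 of the 8 members read lower on the knockout-labelled array, beside 41% of all genes past the filter and 51.5% of those near background on both arrays, and their median difference was -0.47 against 0.08 for all genes. The member 2-fold lower as measured was Ptcra, 1 of 8, where 0.781% of genes were as low, and no member was 2-fold higher, where 1.56% of genes were. At a threshold of 1.5-fold, Ptcra, Hey1, Heyl and Hes1 were lower, 4 of 8, where 5.16% of genes were, and no member was higher, where 9.16% were. At the levels of these 4 the share was larger. Of genes with mean levels from 2.88 to 4, 9.49% were at least 0.6 lower, and of those from 4 to 5, 5.66%. With values under 4.80 raised to that level, Hes1 was at -0.06 and the other 4 targets at 0, so the median of the 8 was 0 and none was 2-fold lower. The 3 members above background on both arrays had a median of -0.05, and the 5 targets, which were near or under it, one of -0.61. The family has few members, they were chosen with these data known, and the counts are a description.

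The negative control probe sets gave a second yardstick at the level of each member. They scattered more widely between the arrays than genes of like level, and how many probes each control holds is not known here. Within 0.5 of the mean level of Ptcra there were 344 negative controls, and 15 of them (4.36%) were as low as Ptcra. For Hey1 the count was 143 of 935 (15.3%), and for Hes1 it was 44 of 272 (16.2%). Heyl was matched or passed by 125 of 617 (20.3%) and Dtx1 by 201 of 572 (35.1%). Negative control probe sets thus read as low as Hes1, Hey1 and Heyl in 15.3% to 20.3% of cases. What these controls target is not known here, and the brightest read 11.56 in wild type and 11.38 on the knockout-labelled array. The receptors and Rbpj lay on the other side of their controls. Of 76 negative controls near Notch1, 50 were as low, and of 67 near Rbpj, 63 were as low. Negative controls of that brightness had medians of -0.27 and -0.32.

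**Figure D3:**
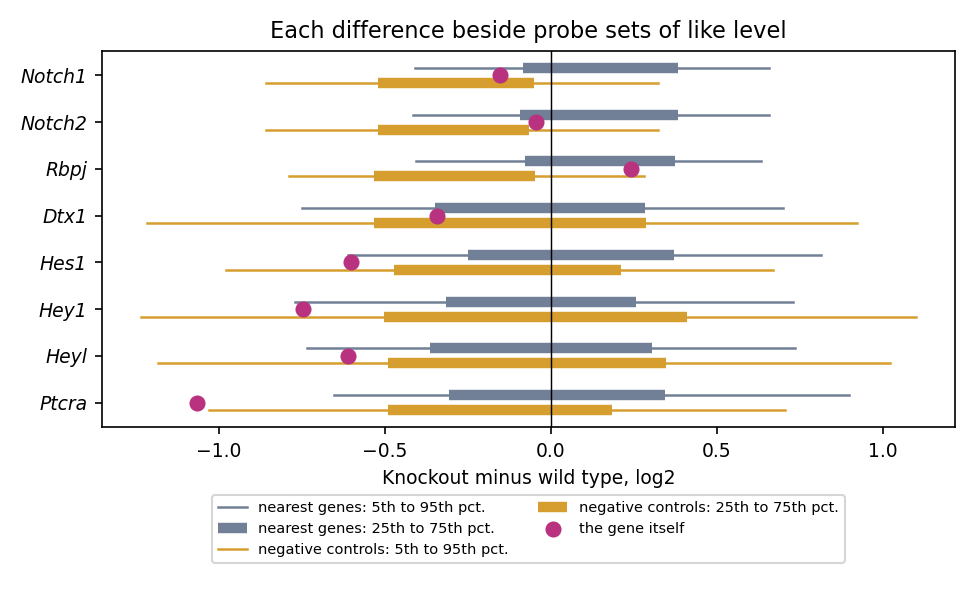
Each member's difference (point) beside the 500 genes nearest in level (grey) and the negative controls within 0.5 of its level (yellow); thin lines run from the 5th to the 95th percentile and thick bars from the 25th to the 75th. Ptcra, at -1.07, lies just below the 5th percentile of the controls (-1.03), while Hes1, Hey1, Heyl and Dtx1 lie inside their range.

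By likeness over the 2 arrays, the named genes at the smallest distance in the plane of both levels were Tmem134 and Mast4 for Notch1, Gtpbp1 and Leng8 for Notch2, and Glg1 and Osbp for Rbpj. For Hes1 they were Ric8a (4.90 and 4.26) and Mall (4.82 and 4.29). With 2 arrays this distance is only a matter of like level and like difference.

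Upstream of Rbpj, readings went both ways. Outside the members, 31 genes of the ligand, receptor, cleavage, glycosyltransferase and turnover lists passed the filter, of which 13 read lower and 18 higher, with a median of 0.11 beside 0.08 for all genes. Of these, 0 were 2-fold lower and 1 was 2-fold higher (Dtx3) as measured. Of the 7 ligands, which are mostly made by stromal and epithelial cells, 5 were under the level filter and the others, Dlk2 (-0.34) and Jag2 (0.11), were near background. Notch4, an endothelial receptor, was near background at 0.19, and Notch3 was under the filter. Of the 9 measured genes of receptor cleavage, 6 read higher and 3 lower and none was 2-fold different. Their median of 0.08 turned to -0.04 after a loess correction on level. The γ-secretase subunit Ncstn was above background on both arrays, at 6.63 and 6.94, and so was the sheddase Adam10, at 6.49 and 6.66. Aph1c (0.74) and Aph1b (-0.41), related γ-secretase subunits, differed most and were near background, and the convertase Furin was at -0.33.

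Among the 6 glycosyltransferases, which set how well a receptor binds Delta or Jagged ligands, 3 read lower and 3 higher, with a median of 0.02 that turned to -0.06 after the same correction. Lfng, a Fringe enzyme that favours Delta ligands, read 6.26 in wild type and 5.78 on the knockout-labelled array. Its difference of -0.48 exceeded the local spread of 0.34, and 16 of 500 neighbours were as low. Poglut1, an O-glucosyltransferase, was at -0.32, and Pofut1, the O-fucosyltransferase on whose sugar the Fringe enzymes build, was near background at 0.65. Of the ligand, receptor, cleavage, glycosyltransferase and turnover genes above background on both arrays, Lfng had the lowest difference.

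Besides Dtx1, 13 genes of endocytosis and turnover passed the filter, 6 lower and 7 higher, with a median of 0.21. The Deltex relatives of Dtx1 went both ways. Dtx2 was above background on both arrays and read 5.16 and 4.89, a difference of -0.27 that 66 of 500 neighbours matched or passed. Dtx3 was 2-fold higher as measured, from 2.97 to 4.13 (1.16), but near background on both arrays. Dtx4 read 4.53 and 5.19 (0.66) and was at least 1.31-fold higher, since the wild-type reading was under background. Neurl3, a Neuralized-like ubiquitin ligase, was near background at -0.70.

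The partners of Rbpj in the nucleus leaned slightly to higher readings, as genes of that level did in general. Of 7 activators besides Rbpj 5 read higher, with a median of 0.14, and of 12 corepressors 9 read higher, with a median of 0.16. After centring on the median of all genes these were 4 of 7 and 7 of 12, with medians of 0.06 and 0.07. Snw1, which binds Rbpj and the Notch intracellular domain, was at 0.45, the acetyltransferase Kat2a at 0.28 and the Mastermind gene Maml2, near background, at -0.26. L3mbtl3, a corepressor that binds Rbpj, read 5.69 and 6.31, a difference of 0.62 against a spread of 0.35, and 34 of 500 neighbours were as high. Spen, near background, was at 0.53 and the Groucho gene Tle2, near background, at -0.58. None of the 19 was 2-fold different.

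**Figure D4:**
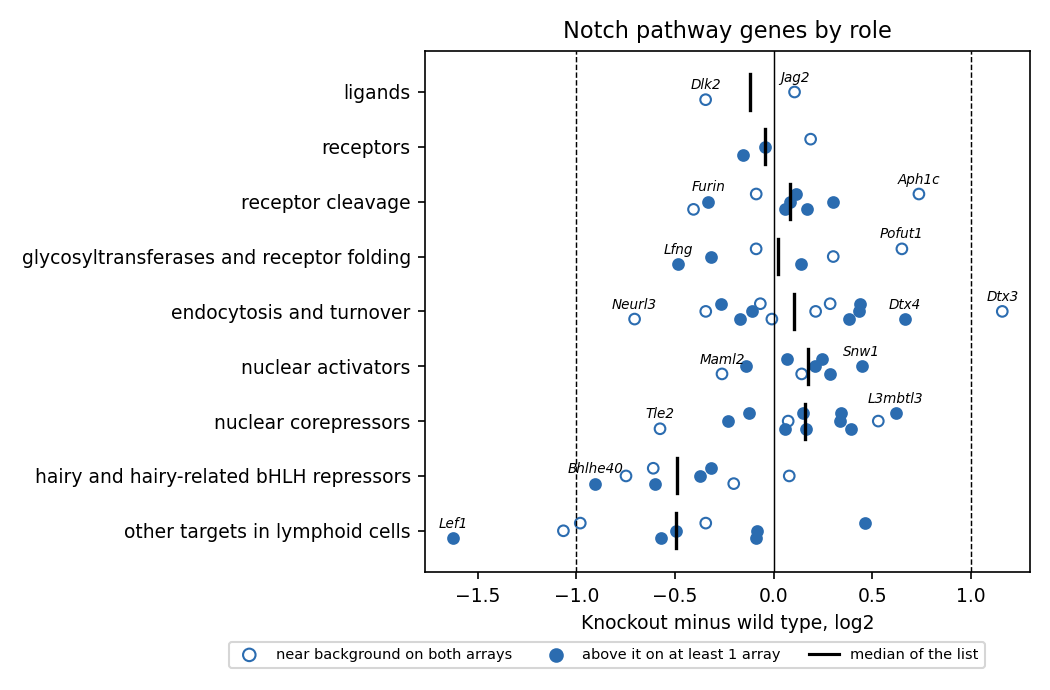
Difference (knockout minus wild type, log2) of each Notch pathway gene past the level filter, by role, with open circles for genes near background on both arrays, black bars for list medians and dashed lines at 2-fold. The 2 lists at the bottom, hairy and related bHLH repressors and other lymphoid targets, contain the member targets and have medians of -0.49 and -0.50. The other lists, of which receptors, turnover and activators also hold members, lie between -0.12 and 0.18.

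Downstream, the lists were of hairy and related bHLH repressors, drawn up by protein family, and of other targets in lymphoid cells. These lists too were chosen with earlier results of these data known, so their counts are a description. Outside the 8 members, 12 further genes of these lists passed the filter, and 10 read lower, beside 41% of all genes. Their median was -0.35, and -0.11 with values under 4.80 raised to that level. Of the 12, 1, Lef1, was 2-fold lower as measured, beside 0.781%. Of the 8 that were above background on both arrays, 7 read lower, some of them by very little. In the list of hairy and related bHLH repressors 4 of 5 genes besides Hes1, Hey1 and Heyl were lower, with a median of -0.32. Bhlhe40, a repressor that many signals induce, read 7.57 in wild type and 6.67 on the knockout-labelled array. Its difference of -0.90 compares with a spread of 0.27, and 3 of 500 neighbours were as low. Hes5, a Notch target in neural and thymic progenitors, read 5.94 and 5.62, a difference of -0.32 beside a spread of 0.33. Set against its neighbours' median of 0.16 it was at -0.48, which exceeds that spread, and 38 of 500 neighbours were as low. Hes6, which works against Hes1, was at least 1.09-fold lower, with the wild-type reading taken as exact and background as 4.80. Its difference as measured, -0.37, did not exceed the spread of 0.43, and 78 of 500 neighbours were as low. Hes7 and Hes2, near background, were at -0.20 and 0.08. Hes5, Hes6, Hes7 and Hes2 are named here after their values were seen, to complete the family.

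In the list of other targets in lymphoid cells 6 of 7 genes besides Dtx1 and Ptcra were lower, with a median of -0.50. Lef1, an HMG box factor of early T and B cell development, read 6.46 in wild type and 4.83 on the knockout-labelled array. It was 3.08-fold lower, a difference of -1.62 against a spread of 0.34, and 0 of its 500 neighbours were as low. Bcl11b, the T lineage commitment factor, read 3.83 and 2.85 (-0.98) but was near background on both arrays, with 4 of 500 as low. Ccr7, a homing receptor of lymphocytes, was at -0.57 and the D-type cyclin Ccnd3 at -0.50. Igf1r (-0.08) and the cell cycle inhibitor gene Cdkn1a (-0.09), both above background, differed by less than their local spreads. Myc was higher and read 8.32 and 8.78, a difference of 0.46 against a spread of 0.19, with 37 of 500 as high. Ccr7, Ccnd3, Igf1r, Cdkn1a and Myc are also named after their values were seen. Nrarp and Il2ra, further Notch targets in T cell progenitors, were under the level filter.

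Genes of T cells and B cells, which share several of these targets, were lower on the same array. Of 13 T cell markers past the filter 12 read lower, beside 41% of all genes, and 8 were 2-fold lower as measured, beside 0.781%. Their median was -1.18, and their summed linear level was 884 in wild type and 328 on the knockout-labelled array. Trat1, under the filter, read higher (0.48). No marker in the list was at 0, but on the knockout-labelled array Cd3d, Cd3g, Cd247, Cd8a, Cd8b1 and Cd6 were under background. Zap70 and Themis were under background on both arrays. The pan-T cell gene Cd3e was above it on both arrays, at 7.79 and 5.69, and Cd4 was at 0.09. T cells or their precursors also express Ptcra, Lef1, Bcl11b and Ccr7. All 10 B cell markers past the filter read lower, beside 41% of all genes, and 5 were 2-fold lower as measured, beside 0.781%. Their median was -0.99 and their summed levels were 1409 and 770. Pax5, Vpreb1 and Blk were under background on the knockout-labelled array, and Cd22 on both arrays. B cell precursors express Lef1 too. Of 9 macrophage markers 9 read higher, as did 6335 of all 10881 genes past the filter, with a median of 0.84 and sums of 398 and 634. Among them Adgre1, Cd5l and Mertk were near background on both arrays. Of 6 eosinophil markers 4 were 2-fold lower as measured, beside 0.781% of all genes, while Ccr3 (0.96) and Siglecf (0.14) were higher. Alox15 was under background on the knockout-labelled array, Ccr3 on the wild-type array and Siglecf on both. The sums of the 6 were 1969 and 690. The remaining lists went both ways within themselves. The neutrophil markers had a median of -0.11 and ran from -0.55 (Ltf) to 0.72 (Ctsg). The NK and ILC1 markers had a median of -0.11 and ran from -1.78 (Ccl5) to 0.53 (Nkg7). The sort gate and ILC progenitor genes had a median of -0.25 and ran from -0.93 (Nfil3) to 1.23 (Id2). The endothelial and stromal markers had a median of -0.06 and ran from -0.29 (Pecam1) to 1.33 (Cxcl12). Whether these cell types contribute to the lower readings of the target genes was not tested.

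**Figure D5:**
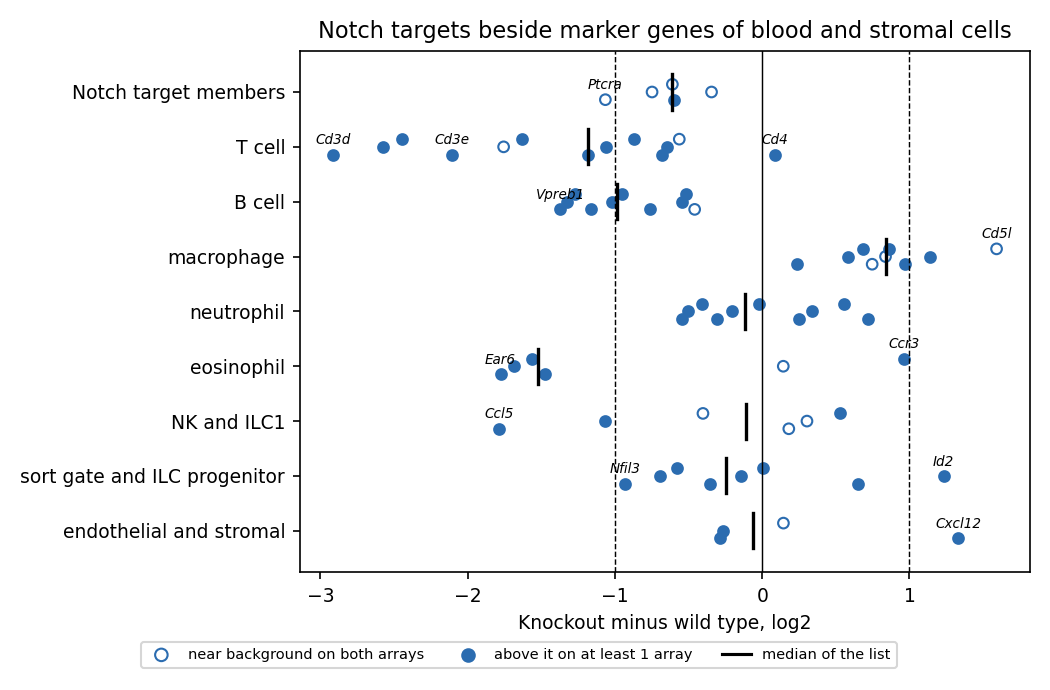
Difference (knockout minus wild type, log2) of the 5 Notch target members and of marker genes of blood and stromal cells past the level filter, with open circles for genes near background on both arrays, black bars for medians and dashed lines at 2-fold. The target members have a median of -0.61, between the neutrophil markers (-0.11) and the T cell markers (-1.18).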

How the data were processed

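The members and all gene lists were chosen with earlier results of these data known. The deposited values are log2 levels that the authors computed with Affymetrix Power Tools and RMA, per the submitters' processing notes. RMA corrects background, brings the probe values of the arrays to one distribution and then combines the probes of a probe set. A change in all RNA of a cell would thus be hidden. The deposited probe set values still differed slightly, with medians of 2.91 in wild type and 2.87 on the knockout-labelled array. Not given in the sources used here are the build and the tool versions. A Mouse Gene 2.0 array is named in the design text, yet the probe set names fit a different Affymetrix mouse annotation, from which the gene names were taken.

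Of 29129 probe sets, 19572 have 1 gene symbol in that annotation and none has several, and they give 19505 genes. The RefSeq gene table held every one of their gene identifiers. For the 55 genes with several probe sets, that of highest mean was used. Values were used as deposited. Nothing was tested, since each genotype has 1 array, and this number limits the precision. Named are the 8 members, per list each gene 2-fold different and the 3 that differed most, and for each member above background the 2 genes nearest in level on both arrays. Kyat1, put among the corepressors by mistake, was left out, and some other genes of the lists are not reported here. Alternatives were 3 other level filters, a floor at background, median centring, loess on level (span 0.3), quantile normalization, averaging of a gene's probe sets and a 1.5-fold threshold. The calculation was checked on simulated data. Python 3.11.15, numpy 2.4.6, pandas 2.3.3 and statsmodels 0.14.6 were used.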

Additional observations from a re-analysis of the deposited data

How the results depend on the processing

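With 1 array per genotype, no replicate could be left out. No paired analysis was possible because each genotype has 1 array and the labels give no replicate numbers. Under median centring, loess on level and quantile normalization every member kept its direction. Notch1 was then between -0.30 and -0.24 (-0.15 as deposited), Notch2 between -0.19 and -0.13 (-0.05) and Rbpj between 0.09 and 0.16 (0.24). Level filters at 4.84, the 75th percentile, and at 4.75, the background level of the mean of both arrays, left no target member, so the median of the members was -0.045 and 0 were 2-fold lower under both. They left 25 genes 2-fold lower under each, and 35 and 38 higher. With values raised to 4.80, Hes1 was at -0.060 and Hey1, Heyl, Ptcra and the medians of the members and of the target members were at 0. No member or target member was then 2-fold lower (0), and 23 genes were lower and 19 higher. At 1.5-fold, 4 members were lower, all 4 of them targets, with 561 genes lower and 997 higher. With no level filter 137 genes were 2-fold lower. Centring changed the split of 2-fold genes from 170 higher and 85 lower to 123 and 118. List medians that changed sign were those of ligands (0.087) and turnover genes (-0.038) with no filter and of glycosyltransferases (-0.32 with either stricter filter, -0.060 with centring, -0.061 with loess or quantile normalization). The median of receptor cleavage genes also did so (-0.00086 with centring, -0.037 with loess, -0.022 with quantile normalization). Members included, the medians of the hairy repressor list and the lymphoid target list were -0.26 and -0.32 with no filter. They were -0.61 and -0.29 with either stricter filter and -0.03 and -0.08 with values raised to 4.80. Signal close to background limits Dtx1, Hes1, Hey1, Heyl and Ptcra.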

Other observations

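Genes and negative controls of the brightness of Notch1, Notch2 and Rbpj moved to opposite sides. At mean levels from 5 to 6, 74.1% of 116 negative controls read lower on the knockout-labelled array, with a median of -0.25, against 36.8% of 2400 named genes, with a median of 0.13. From 6 to 7, 75% of 44 negative controls were lower, against 30.3% of 1593 genes. From 4 to 5, where Hes1 and Ptcra lie, 59.1% of 276 controls were lower, with a median of -0.13, against 45.2% of 2739 genes, with a median of 0.05. From 2.88 to 4, where Hey1, Heyl and Dtx1 lie, the shares were close, 53.6% of 733 controls and 52.3% of 3013 genes.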
